A study of Oryza sativa with 16 samples.

Results

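The expression profiles of 2 drought-stressed rice varieties were compared with each other. The comparison used the 2 arrays labelled drought-stressed and drought-sensitive, which is IR64 in the study, against the 2 arrays labelled drought-stressed and drought-tolerant, which is Vandana. These 4 arrays are all of the drought-stressed arrays among the 16 arrays of the series, and they were chosen by their labels alone. All plants were rice (Oryza sativa) seedlings grown in nutrient solution, and the tissue was labelled leaf, while the study's description of the RNA preparation says shoot. Drought meant that seedlings were kept outside the medium, for 24 h in the labels and 12 h in the study's methods. Seedling age was 2 weeks in the labels, and both 14 and 10 days appear in the methods. The unstressed groups, IR64 control and Vandana control, had 2 arrays each and stayed in the medium. RNA was hybridised to the Affymetrix rice genome array, and 57194 probe sets were left after control probe sets were removed. The methods say that collected tissue was pooled, and no source used here says whether the 2 arrays of a group came from separate plants. The p-values therefore measure the spread between arrays, which may be technical. That spread was pooled over all 16 arrays, which include control and salt-stressed arrays of the varieties VSR156 and CSR11. The typical SD between arrays of a group (root mean square, log2) was 0.134 to 0.481 in those salt-experiment groups. It was 0.112 in the group labelled IR64 drought and 0.159 in that labelled Vandana drought.

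Rice leaves that lose water accumulate abscisic acid (ABA), a hormone that closes stomata. ABA binds receptors that block type 2C protein phosphatases (PP2C), which frees SnRK2 kinases (SAPK in rice) to switch on bZIP, NAC and homeobox factors. Their targets include dehydrins and other LEA proteins, small hydrophilic proteins that protect cell contents during drying. IR64 is a lowland indica variety and Vandana an upland variety, so their transcript levels can differ through sequence and gene content as well as through the response to stress.

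A level is given here as log2(intensity + 16) after the arrays were brought to one distribution, so that a level of 4 is an intensity of 0. A difference is IR64 minus Vandana on that scale, which understates the change of dim probe sets. A probe set was called when limma's adjusted p was under 0.05 and the difference was at least 1 in size.

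At probe sets far apart between the controls, the arrays labelled Vandana drought lay near the IR64 control. Those labelled IR64 drought lay between the 2 controls. This is given before the results because every direction below rests on the labels. Between the controls, 67 probe sets were at least 3 units higher in Vandana. In the arrays labelled Vandana drought all 67 lay nearer to the IR64 control, with a median intensity of 1.46% and 1.10% of the Vandana control in arrays A and B. The IR64 control arrays themselves had 1.53% and 1.91%. In the arrays labelled IR64 drought the same probe sets had a median of 37.7% and 39.3% of the Vandana control, and 22 of the 67 lay nearer to the IR64 control. So transcripts that the controls showed in Vandana were near background in both arrays labelled Vandana drought and present in both arrays labelled IR64 drought. These probe sets were chosen in unstressed plants, so their levels in drought arrays can mix stress and variety.

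A further 139 probe sets were at least 3 units higher in the IR64 control. They had a median of 93.1% and 89.3% of the IR64 control intensity in the arrays labelled Vandana drought, and 50.5% and 49.1% in those labelled IR64 drought. The Vandana control arrays had 2.71% and 2.39%. This second set also holds drought-responsive genes such as EM, RAB16B and HOX24, so its levels in drought arrays mix stress and variety. TPP7, which makes trehalose from its phosphate, has a probe set in the first set, that of probe sets higher in the Vandana control. The gene is known to be missing from the genome of IR64, which was not checked here. That probe set is of a kind that can match several transcripts. A dim second one differed by 0.06 under drought and by −0.09 between the controls. The intensity of the first was 7.95 and 12.2 in the IR64 control and 198 and 190 in the Vandana control. It was 104 and 99.3 in the arrays labelled IR64 drought and 0.206 and 0.329 in those labelled Vandana drought. The groups are therefore written below as labelled IR64 drought and labelled Vandana drought. Why the drought arrays had these levels was not tested. All values below use the labels as given, and the interactions with the labels of both drought groups exchanged are given in the closing section.

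**Figure D1:**
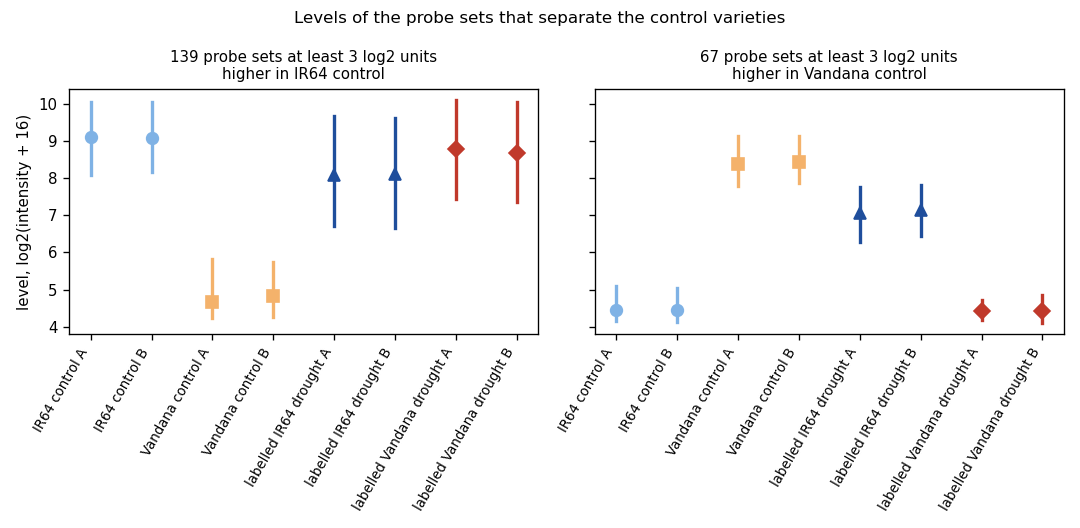
Median level (points) and quartiles (bars), in log2(intensity + 16), of the probe sets whose controls differed by 3 log2 units or more, for each of the 8 arrays of the drought experiment. In the right panel, the 67 probe sets higher in the Vandana control have medians of 4.41 and 4.42 in the arrays labelled Vandana drought and of 7.07 and 7.15 in those labelled IR64 drought.

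The 4 drought arrays resembled each other closely. Pearson's r across probe sets was 0.98 to 0.982 between the labelled varieties under drought, 0.946 to 0.948 between the control varieties and 0.988 to 0.992 between the 2 arrays of a group. These are correlations across genes, which are not independent replicates. Mean deposited intensity was 99.8 to 138 in the 4 drought arrays and 104 to 230.5 in the 4 controls, where Vandana control B was the brightest. The 3′ GAPDH control probe set was compared with the 5′ one as a sign of RNA quality. Their difference in log2 intensity was 0.46 to 0.61 in the drought arrays, 0.01 to 0.36 in the IR64 control and 1.22 to 1.35 in the Vandana control. The part of these differences in the results was not tested. Summed leaf marker intensity (7 chlorophyll-binding, photosystem and Rubisco genes) was 12700 to 13300 in the drought arrays and 17500 to 18100 in the controls. The 11 root genes summed to 2510 to 2680 in labelled IR64 drought, 1750 to 1900 in labelled Vandana drought, 8470 to 8650 in the IR64 control and 897 to 936 in the Vandana control. The 21 flower and seed genes stayed between 321 and 471 in all 8 arrays, and the 25 genes of dividing cells summed to 411 to 480 in the drought arrays and 554 to 955 in the controls. In tissue of mixed cells, fewer cells of a type and less RNA per cell cannot be told apart.

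Between the drought arrays, 292 probe sets were higher in labelled IR64 drought (0.511% of those tested) and 35 were lower (0.0612%). On values as deposited, without normalization, these counts were 113 and 1. With arrays only centred 3 probe sets were lower, and with the 8 arrays of the drought experiment alone 81 were, of 472 calls in both directions. In all 327 the arrays of the groups did not overlap, which nearly follows from the call itself and adds no support. Between the controls 1493 probe sets were higher in IR64 (2.61%) and 1224 lower (2.14%), with no array shared between the comparisons. Without any normalization this control split turned to 353 higher and 570 lower. Over the 16046 brighter probe sets, the median size of the difference was 0.136 under drought and 0.336 between the controls. The higher calls were also the larger ones. Their median difference was 1.67, with quartiles of 1.3 and 2.32, whereas the lower calls had a median of −1.13 and quartiles of −1.19 and −1.04.

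Most of the higher calls were near background in one group. Of the 292, 190 had a mean level under 5 in labelled Vandana drought, and 186 had one in the IR64 control. None had one in labelled IR64 drought and 26 did in the Vandana control. Of the 35 lower calls, 28 had a mean level under 5 in the Vandana control and 2 in the IR64 control. Under drought, 2 had one in the arrays labelled IR64 and none in those labelled Vandana. The latter again follows from the call. Calls were made on 0.921% of the probe sets whose names start with Os and 0.137% of those starting with OsAffx. They were made on 1.15% of probe sets with a mean intensity of at least 50 and 0.348% of dimmer ones.

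The drought difference and the control difference mostly had opposite signs. Of the 292 higher calls, 217 (74.3%) were called lower in the IR64 control, 3 were called higher and 72 were not called. Of the 35 lower calls, 33 (94.3%) were called higher in the IR64 control, none lower, and 2 were not called. In all 250 probe sets with opposite calls the test of the difference between both comparisons (the interaction, adjusted p under 0.05) was also passed. This nearly follows from the opposite calls themselves and adds no support. The interaction passed in 4238 probe sets in all (7.41%), 2151 with a positive value (3.76%) and 2087 with a negative one (3.65%). On deposited values the split was 682 and 219.

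Within the 217 probe sets, labelled IR64 drought held a median of 67.9% of the Vandana control intensity, with quartiles of 47.6% and 103%. In 45 of them both arrays lay above both Vandana control arrays and in 142 both lay below. Labelled Vandana drought held a median of 5.97% and the IR64 control 6.4%. For the 33 probe sets of the other direction, labelled IR64 drought held a median of 45% of the IR64 control intensity, while labelled Vandana drought held 125% and the Vandana control 2.84%. In 19 of the 33 both arrays labelled Vandana drought lay above both IR64 control arrays and in 11 both lay below. Both arrays labelled IR64 drought lay below both IR64 control arrays in 27 of the 33. Both sets were picked by their calls on these same arrays. Which groups were low in them largely follows from that choice, so these values are given as a description.

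**Figure D2:**
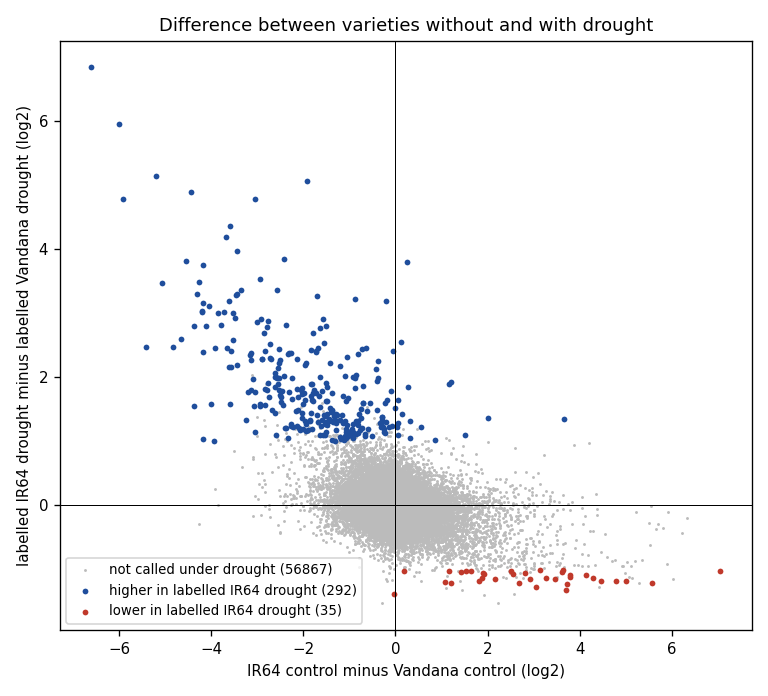
Difference between the varieties in the control arrays (x axis) and in the drought arrays (y axis), both log2, for 57194 probe sets, with those called under drought in colour. The 292 higher calls lie mostly at negative control differences and the 35 lower calls at positive ones.

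Probe sets that were alike in the controls were rarely called. Of the 54236 probe sets less than 1 unit apart between the controls, 70 were higher in labelled IR64 drought and 2 were lower, which is 0.133%. Of the 2958 probe sets further apart, 222 were higher and 33 lower, which is 8.62%. Dim probe sets have little room to differ by 1 unit in either comparison on this scale. Of all probe sets, 41148 had a mean intensity under 50, and these shares were not separated by brightness.

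The response that both drought groups shared was nearly the same in size. In 736 probe sets all 4 drought arrays lay at least 1 unit above all 4 control arrays, and 1 of them was called higher and 3 lower in labelled IR64 drought (0.543%, beside 0.572% of all probe sets). In 1118 probe sets all 4 drought arrays lay at least 1 unit below all controls, and 2 were called higher and none lower. The median drought difference was −0.02 in the first set and 0.03 in the second. In the first set 5% of differences were under −0.52 and 5% over 0.45. These sets were picked on the same arrays, which limits how far their drought groups could differ, so they are given as a description.

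Dehydrin and LEA genes were at like levels in both drought groups. None of the 8 measured genes of the list was called under drought, beside 0.815% of all genes. In the controls 6 were called higher in IR64, beside 831 of all 17905 genes. RAB16B was at 11.82 and 11.76 in labelled IR64 drought and at 11.72 and 11.76 in labelled Vandana drought. It was at 10.4 and 10.45 in the IR64 control and 6.98 and 6.76 in the Vandana control, so the controls were far apart and the drought arrays overlapped. Its drought difference was 0.05 (95% interval −0.31 to 0.41). RAB25 had a drought difference of 0.13 (−0.25 to 0.51) and RAB16D one of −0.05 (−0.48 to 0.39). EM, an LEA gene best known from seeds, was at 10.13 and 10.04 in labelled IR64 drought and 10.3 and 10.45 in labelled Vandana drought, against 4.64 and 4.71 in the Vandana control. Its interaction of −6.00 passed the test (limma, adjusted p = 5.08e-06), while its drought difference of −0.29 did not. LEA19 had the largest positive difference of the list, 0.21 (−0.45 to 0.87), and the list's median was 0.03.

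None of the 3 genes of ABA synthesis and breakdown was called. ABA8OX1 and ABA8OX2, which break ABA down, had drought differences of −0.31 (−1.10 to 0.47) and 0.05 (−0.19 to 0.29). ABA8OX2 was at 8.98 and 9.04 in the IR64 control and 5.83 and 5.82 in the Vandana control, and between 8.97 and 9.13 in all 4 drought arrays. ABA1, an enzyme of ABA synthesis, differed by 0.09 (−0.30 to 0.48). Of 67 ABA receptors, PP2C phosphatases and SAPK kinases, 1 was called under drought (1.49%, beside 0.815% of all genes). In the IR64 control 13 were called higher and 3 lower, beside 831 and 720 of all 17905 genes. The called gene was PP2C12, a type 2C phosphatase. Its levels were 7.38 and 7.22 in labelled IR64 drought, 5.37 and 4.8 in labelled Vandana drought, 5.92 and 5.59 in the IR64 control and 8.29 and 8.3 in the Vandana control. Both labelled IR64 drought arrays were above the labelled Vandana ones and below the Vandana control. The difference was 2.22 ± 0.23 (SE, limma adjusted p = 0.00044), and −2.54 between the controls. This probe set is of a kind that can match several transcripts, and without normalization the adjusted p was 0.735.

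PP2C45 was called by 1 of its 2 probe sets. That probe set was at 8.26 and 8.29 in labelled IR64 drought and at 4.74 and 4.12 in labelled Vandana drought, a difference of 3.85. The brighter probe set was at 9.75 and 9.96 against 9.53 and 9.48, a difference of 0.35 that did not pass the test. C3H2, a CCCH zinc finger gene, behaved alike, with 2.91 on the called probe set and −0.28 on the brighter one. FBA3, a fructose-bisphosphate aldolase, had a dim called probe set at 1.78 and brighter ones at 0.64 and −0.17, neither past the test. For these 3 genes, chosen after their values were seen, the probe sets disagree and no change of the gene as a whole can be given. Of 66 genes with a call and more than 1 probe set, all probe sets had the same sign in 44, and more than 1 was called in 12.

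**Figure D3:**
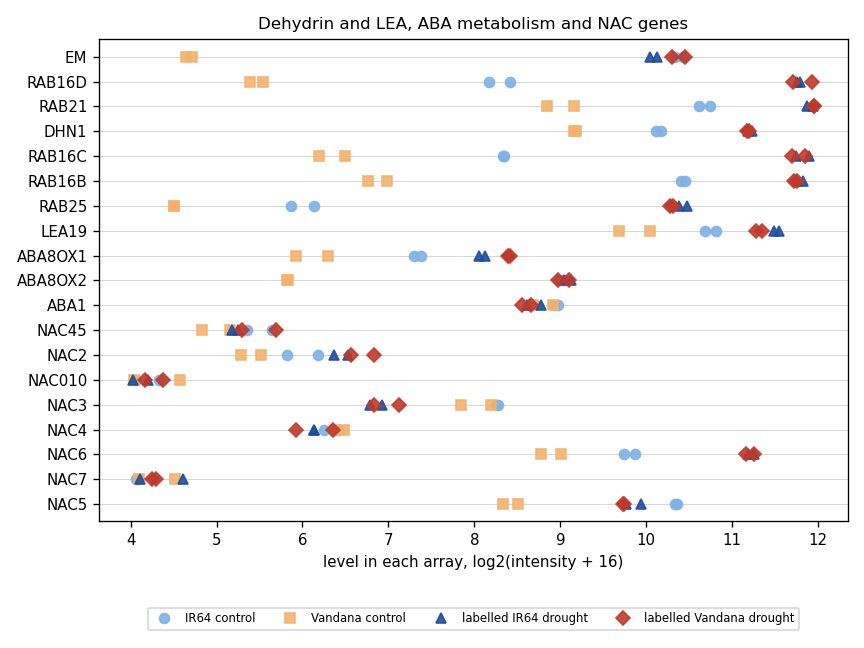
Level of each of the 8 arrays, in log2(intensity + 16), for all measured genes of the dehydrin and LEA, ABA metabolism and NAC lists, 2 points a group. The drought differences of all genes shown lie between −0.31 and 0.21, while the Vandana control is the lowest group for the 8 dehydrin and LEA genes.

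Among regulators, none of the 8 NAC, 34 homeobox, 20 bZIP, 6 WRKY, 7 DREB, ERF and AP2, 21 heat shock factor or 64 calcium and MAP kinase pathway genes was called under drought. With 0.815% of all genes called, lists of these sizes would hold few calls or none at the overall share. NAC6, a stress-inducible NAC factor, was at 11.26 and 11.19 in labelled IR64 drought and 11.16 and 11.26 in labelled Vandana drought, with a difference of 0.02 (−0.39 to 0.42). HOX24, a homeobox factor of the HD-Zip family, was between 11.28 and 11.45 in all 4 drought arrays. It was at 10.6 and 10.62 in the IR64 control and at 5.13 and 4.98 in the Vandana control, and its interaction was −5.57 (limma, adjusted p = 8.2e-09). Of 14 MYB factors 1 was called (7.14%). PHR3, a MYB-type factor of the phosphate starvation response, was at 9.72 and 9.76 in labelled IR64 drought and at 7.9 and 7.8 in labelled Vandana drought. Its controls were at 7.18 and 7.04 in IR64 and 5.86 and 6.02 in Vandana, so that the IR64-labelled group was the higher one in both comparisons. The drought difference was 1.89 ± 0.36 (SE, limma adjusted p = 0.0388), and it lost its call whenever any array of the drought experiment was left out (adjusted p 0.0687 to 0.275). EIL1, an EIN3-like factor of ethylene signalling, had 6.54 and 6.72 in labelled IR64 drought and 4.18 and 4.15 in labelled Vandana drought. Its difference was 2.46 ± 0.17 (limma, adjusted p = 2.11e-05), beside −1.68 in the controls.

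In metabolism, the largest difference of a gene with a name was that of ASMT1, a methyltransferase of the last step of melatonin synthesis. Its intensity was 712 and 593 in labelled IR64 drought and 3.23 and 4.51 in labelled Vandana drought. The controls gave 0.726 and 3.45 in IR64 and 54.7 and 50.8 in Vandana. Thus labelled IR64 drought was above all other arrays, and labelled Vandana drought and the IR64 control were near background. The difference was 5.07 ± 0.24 on the log2 scale (limma, adjusted p = 7.86e-07), and it kept its call in every alternative except the t-test after adjustment. The other 4 genes of the tryptophan, serotonin and melatonin list were not called. TDC2, a tryptophan decarboxylase, lay between 5.90 and 5.98 in the 4 drought arrays, a difference of −0.05 (−0.37 to 0.27), and both SNAT genes had differences of 0.10 and 0.21.

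TPP7, described above, had a difference of 2.86 ± 0.21 (limma, adjusted p = 3.54e-05). It was the 1 gene called among 40 osmolyte and antioxidant genes (2.5%, beside 0.815% of all genes). A dim second probe set of TPP7 gave 0.06, and its levels were between 4.07 and 4.55 in all 8 arrays. The next gene of that list by size was APX5, an ascorbate peroxidase, at 0.38 (−0.16 to 0.91). CYP76M7, a cytochrome P450 of diterpenoid phytoalexin synthesis, was at 6.29 and 6.53 in labelled IR64 drought and at 4.42 and 4.09 in labelled Vandana drought. The Vandana control, at 7.78 and 7.87, was above both. The difference was 2.16 ± 0.15 (limma, adjusted p = 2.61e-05). BGLU9, a beta-glucosidase, differed by 1.32 ± 0.18 and SDH3-2, a subunit of mitochondrial succinate dehydrogenase, by 1.43 ± 0.16. Both had the opposite sign in the controls, at −1.32 and −1.28.

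GRXC1 and GRXC10, glutaredoxins that reduce disulphide bonds with glutathione, were the 2 genes called among 29 thioredoxins and glutaredoxins. That is 6.9% of a small list, beside 0.815% of all genes. GRXC1 was at 7.35 and 7.45 in labelled IR64 drought and 5.74 and 6.26 in labelled Vandana drought, below both controls in each group. Its difference was 1.40 ± 0.22, with an adjusted p of 0.00915 in limma, and −1.26 in the controls. GRXC10 was at 6.4 and 6.33 against 5.6 and 4.67, and this wide spread in labelled Vandana drought left an adjusted p of 0.0438. It kept the call without array A of labelled Vandana drought, and lost it without any other array of the drought experiment. Without array B of labelled Vandana drought its difference was 0.77 (adjusted p = 0.196).

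Of 11 root genes 1 was called, NAS2 (9.09%, beside 0.815% of all genes). This gene, a nicotianamine synthase that makes the metal chelator nicotianamine, was at 9.54 and 9.24 in labelled IR64 drought and at 8.08 and 8 in labelled Vandana drought. Its controls were at 11.33 and 11.21 in IR64 and 7.77 and 7.44 in Vandana. The IR64-labelled arrays were higher in both comparisons, by 1.35 ± 0.17 under drought (limma, adjusted p = 0.00191) and by 3.67 in the controls, and the interaction of −2.32 passed the test (adjusted p = 8.63e-05). NAS1, its paralog, had a drought difference of 0.97 (0.71 to 1.24) that passed the p but not the size threshold. Related NAS transcripts can share probes, so the values of NAS1 and NAS2 may not be separate. The iron carriers YSL15 and IRT1 differed by 0.16 (−0.23 to 0.54) and 0.21 (−0.22 to 0.65). All 4 genes belong to the root list, whose summed intensity is given above and was also higher in labelled IR64 drought. That sum includes NAS1 and NAS2, so it is no separate measure of root content. The other members of the list differed by −0.27 (NRAMP5) to 0.17 (IRT2). The part of tissue composition in these values was not tested. Only 2 other probe sets were called higher in IR64 in both comparisons. They were LOC4324459, with 1.36 under drought and 2.01 in the controls, and a probe set with no gene in the annotation, with 1.10 and 1.51.

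In the 32 heat shock proteins and chaperones, HSP21.9, a small heat shock protein, was called (3.12%, beside 0.815% of all genes). It was at 6.16 and 6.39 in labelled IR64 drought, 5.19 and 4.92 in labelled Vandana drought and 4.11 to 4.64 in the controls. The difference was 1.23 ± 0.17 (limma, adjusted p = 0.00396), and its second probe set gave 1.2 (adjusted p = 0.0705). HSP18.1 pointed the other way at −0.84 (−1.21 to −0.48), short of the size threshold. No photosynthesis gene of 13 was called, and the differences ran from −0.22 for a ferredoxin reductase (FNR) to 0.35 for RBCS, the Rubisco small subunit. Across 24 aquaporins, 28 potassium and sodium transporters, 38 sugar, nitrogen and phosphate transporters, 57 cell wall and 64 replication and cell cycle genes there was no call either, again beside 0.815% of all genes. MCM9, a replication helicase of the last list, had 5.36 and 4.95 in labelled IR64 drought and 4.03 and 4.17 in labelled Vandana drought. Its difference of 1.06 ± 0.35 did not pass (adjusted p = 0.359). Dimmer probe sets of MCM9 gave 0.72 and −0.03 under drought, and −2.07 and −0.05 between the controls.

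Over the 2448 genes with a name, 13 were called higher and 2 lower in labelled IR64 drought (0.613%), beside 132 and 14 of all 17905 genes (0.815%), with the brightest probe set standing for each gene. The lower genes with a name were BURP2 and GER2. BURP2, named for its BURP domain, was at 10.16 and 9.81 in labelled IR64 drought and 11.09 and 11.13 in labelled Vandana drought. The IR64 control, at 11.12 and 11.28, was level with the latter, and the Vandana control was at 7.7 and 7.1. The difference was −1.12 ± 0.20 (limma, adjusted p = 0.022), and a dimmer probe set gave −0.33. GER2 was at 9.75 and 9.79 against 10.77 and 10.92, with both controls below at 5.77 to 7.98, and differed by −1.07 ± 0.17 (adjusted p = 0.00911). Both genes lost their call when any 1 drought array was left out, with adjusted p values of 0.0528 to 0.268.

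Other large differences were in genes known only by a locus number. LOC4350213 was at 10.66 in both arrays of labelled IR64 drought and at 4.49 and 4.92 in labelled Vandana drought. The Vandana control was at 10.1 and 10.19 and the IR64 control at 4.03 and 4.27. Its difference of 5.96 ± 0.15 (limma, adjusted p = 2.12e-08) mirrored one of −6.00 in the controls, and a second probe set gave 4.89. LOC4341223 (4.79), LOC4325919 (4.79), LOC4335019 (4.36), LOC4339505 (4.19) and LOC4326058 (3.82) followed, each with a control difference of the opposite sign between −5.92 and −3.04. Of the other probe sets of LOC4325919, one gave 2.03 and was called and the other gave −0.48 and was not. A probe set with no gene in the annotation had 11.4 and 11.38 in labelled IR64 drought, 4.24 and 4.86 in labelled Vandana drought, 10.7 and 10.65 in the Vandana control and 4.09 and 4.05 in the IR64 control. It had the largest difference of all called probe sets, 6.84.

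The locus-numbered genes with the largest negative values among the brightest probe sets were LOC4336038 (−1.23), LOC4329826 (−1.22), LOC9271929 (−1.15), LOC4340201 (−1.15), LOC4342229 (−1.14) and LOC4350667 (−1.13). LOC4329826 was at 6.95 and 7.13 in labelled IR64 drought, 8.15 and 8.36 in labelled Vandana drought, 9.99 and 10.1 in the IR64 control and 4.37 and 4.55 in the Vandana control. All 6 genes were higher in the IR64 control, by 1.87 to 5.58, and all 6 were present in labelled IR64 drought at a lower level than in labelled Vandana drought.

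**Figure D4:**
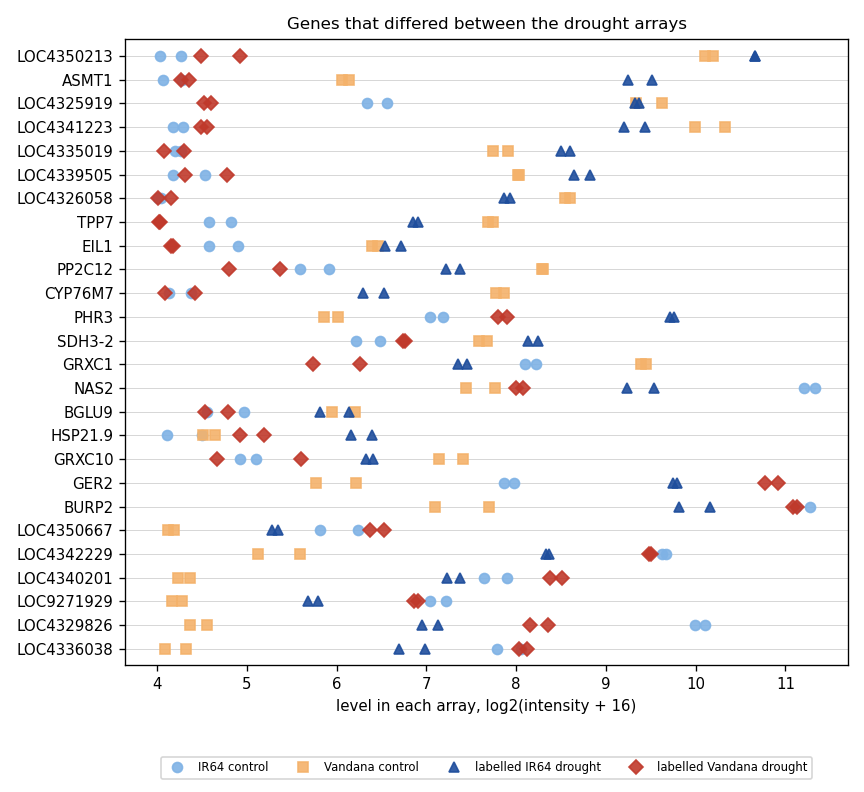
Level of each of the 8 arrays, in log2(intensity + 16), for the named genes that were called between the drought groups, ordered by the difference, 2 points a group. From LOC4350213 at the top (5.96) to CYP76M7 (2.16), labelled Vandana drought lies near or below the IR64 control, and at the bottom labelled IR64 drought lies between the 2 controls for LOC4336038 (−1.23).

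Called genes also stood next to each other on the chromosomes. In the gene order of the RefSeq annotation (assembly ASM3414082v1), limited to measured genes, 29 of 177 called genes (16.4%) had a called neighbour, beside 1.79% of the other genes. They formed 12 runs of 2 or 3 genes, and each run had a single direction. All runs were higher in labelled IR64 drought. So were 292 of all 327 called probe sets, so that the single direction adds little. One run was LOC4334655, LOC4334656 and LOC4334657, with differences of 1.63 to 2.53, and PP2C12 stood beside LOC4328767 (1.27). Neighbouring members of a gene family can share probes.

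The calls least tied to the control difference were those with controls less than 0.5 units apart, 34 higher and 2 lower in labelled IR64 drought. They are named here after their values were seen. Of the 74 probe sets called under drought and not in the controls, 70 also passed the interaction test. LOC4329812 was at 7.44 and 7.34 in labelled IR64 drought, 5.1 and 4.58 in labelled Vandana drought and 4.02 to 4.57 in the controls, a difference of 2.56 (limma, adjusted p = 0.000197). LOC4345561 and LOC4345562, which are neighbours, differed by 2.25 and 1.94. LOC4326064 was at 7.99 and 8.19 against 6.41 and 6.22, with controls at 5.89 to 6.2. A probe set with no gene in the annotation was at 8.22 and 8.3 in labelled IR64 drought, 4.49 and 4.42 in labelled Vandana drought and 5.49 to 6.02 in the controls, a difference of 3.81 (adjusted p = 4.71e-07). Labelled IR64 drought was above and labelled Vandana drought below all controls there.

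GLO1, glycolate oxidase of photorespiration, was among the bright genes of this kind. It was at 9.36 and 9.31 in labelled IR64 drought, 8.17 and 8.05 in labelled Vandana drought and 10.95 to 11.13 in all 4 controls, so both drought groups were lower than the controls and labelled Vandana drought was the lowest. The difference was 1.22 (limma, adjusted p = 0.0167), while another probe set of GLO1 gave −0.26. LOC4348283 was at 8.43 and 8.51 against 6.96 and 6.97, with controls at 8.22 to 8.27, a difference of 1.51, while its dimmer probe set gave 0.09. The lower genes of this kind were LOC4352505 and LOC4352184. LOC4352505 was at 6.45 and 6.55 in labelled IR64 drought, 8.01 and 7.77 in labelled Vandana drought and 4.62 to 5.1 in the controls, a difference of −1.39 (adjusted p = 0.00853). Its other probe sets gave 0.03 and −0.74, neither past the test. LOC4352184 was at 6.97 and 7.08 against 8.07 and 8.03, with controls at 4.09 to 4.69, a difference of −1.03.

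**Figure D5:**
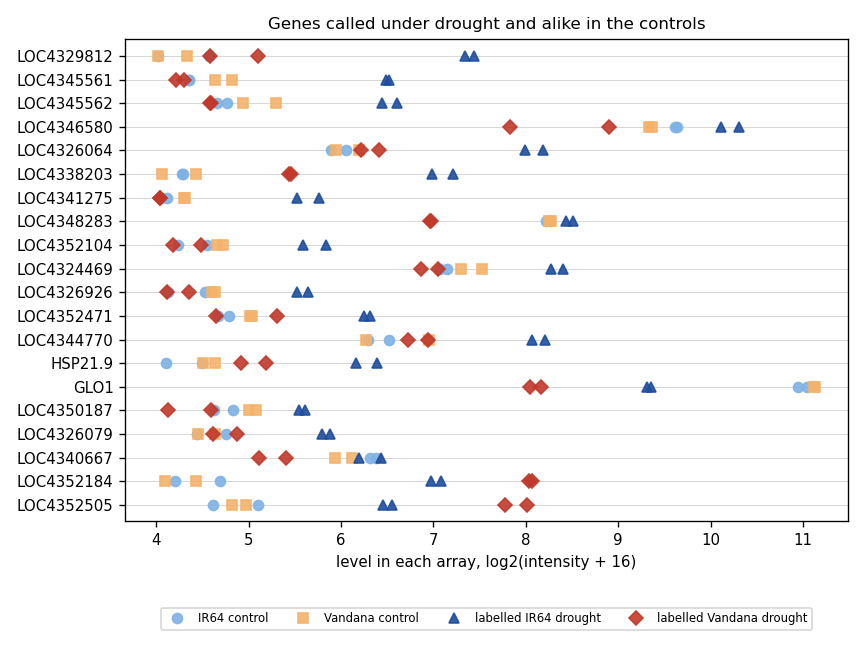
Level of each of the 8 arrays, in log2(intensity + 16), for the genes called under drought whose controls were less than 0.5 log2 units apart, ordered by the difference, 2 points a group. At the top LOC4329812 is higher in labelled IR64 drought by 2.56, and at the bottom LOC4352505 is lower by 1.39.

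The study placed 8 probe sets at the centre of its gene networks of salt and drought, a choice made on these samples. None of them was called between the drought groups, beside 0.572% of all probe sets. The widest differences were those of the probe set the study names isoflavone reductase, at 0.58 (0.09 to 1.06), of one without a name, at 0.57 (0.07 to 1.06), and of an RNA polymerase sigma factor, at 0.54 (0.26 to 0.83). The small heat shock protein HSP18 was at 9.94 and 10.11 in labelled IR64 drought and at 10.06 and 10.23 in labelled Vandana drought, against 6.21 to 6.75 in the controls, so its drought arrays overlapped far above the controls.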

How the data were processed

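The authors deposited linear intensities for 16 arrays, with 57381 probe sets. The submitters' processing notes name GCOS 1.0 and the study's methods name GCOS 1.2 and RMA, and the scale found here is linear and not brought to one distribution. After 187 control probe sets were left out, the values were quantile-normalized over 16 arrays, 16 was added, and log2 was taken. Group means were fitted with limma 3.58.1 (empirical Bayes, 8 groups, 10.94 total degrees of freedom), with Benjamini-Hochberg adjustment over 57194 probe sets. Each group had 2 arrays, and this number limits the precision. A probe set was called at an adjusted p under 0.05 and a difference of at least 1, the interaction at the adjusted p alone. In a simulation of the drought comparison over 57194 probe sets, with 200 shifted, 73 to 85% of shifts of 1.5 and 97 to 100% of shifts of 3 were called, with at most 3 false calls.

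Names came from the platform annotation updated through RefSeq (22436 probe sets with 1 gene, 95 with several, 34663 with none). Named were the 12 genes with a symbol of the largest difference each way, up to 4 called members of each of 34 lists, 6 locus-numbered genes each way, the 6 genes of the largest interaction each way and 4 called in both comparisons each way, with the brightest probe set standing for a gene. Members and lists were chosen with earlier results of these data known. Alternatives were the scaling, the arrays modelled, the pseudocount, a filter, a variance trend, the letters A and B as a block, the methods' t-test and leaving out each array.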

Additional observations from a re-analysis of the deposited data

Results flagged for a closer look

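The difference between the varieties was not the same with and without drought in many probe sets, by the test of the interaction itself (limma, adjusted p under 0.05). It was positive in 2151 and negative in 2087 probe sets with the drought arrays as labelled. With the labels of both drought groups exchanged the counts were 935 and 1153, and on values as deposited 682 and 219. Among genes with a name and with the labels as given, the largest positive interactions were those of ASMT1 (7.0), TPP7 (5.87), CYP76M7 (5.73), PP2C12 (4.76), EIL1 (4.14) and MCM9 (3.63). All of these 6 genes were higher in the Vandana control than in the IR64 control and higher in labelled IR64 drought than in labelled Vandana drought, although the drought difference of MCM9 did not pass the test. These values depend on the labels. With the drought labels exchanged, an alternative added after seeing the data, the interaction was −3.14 for ASMT1, 0.16 for TPP7, 1.42 for CYP76M7, 0.32 for PP2C12, −0.78 for EIL1 and 1.51 for MCM9. Of these 6, ASMT1 and CYP76M7 passed the test under exchanged labels (limma, adjusted p = 0.000369 and 0.00365).

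The largest negative interactions were those of PINA (−6.66), EM (−6.00), HOX24 (−5.57), PM1 (−5.33), BURP2 (−4.93) and WNK7 (−4.68). Each was higher in the IR64 control, and of the 6 only BURP2 was called between the drought groups. PINA was at 11.11 and 11.14 in labelled IR64 drought, 11.56 and 11.58 in labelled Vandana drought, 11.39 and 11.3 in the IR64 control and 5.17 and 5.08 in the Vandana control. PM1, a plasma membrane protein of the PM19 family, was at 11.65 to 11.84 in the 4 drought arrays, 10.97 and 10.94 in the IR64 control and 5.81 and 5.66 in the Vandana control. A dim second probe set of PM1 differed by 0.36 between the controls and by −0.7 under drought. WNK7, a WNK kinase, was at 8.78 to 9.5 in the 4 drought arrays, 9.24 and 9.04 in the IR64 control and 4.59 and 5.12 in the Vandana control. With the drought labels exchanged these interactions were −5.78 for PINA, −5.42 for EM, −5.54 for HOX24, −5.11 for PM1, −2.68 for BURP2 and −3.88 for WNK7, and all 6 passed the test.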

How the results depend on the processing

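The 292 higher calls fell to 113 on values as deposited, 129 with a pseudocount of 64 and 172 among probe sets with a mean intensity of at least 50. Calls in both directions rose from 327 to 472 with the 8 drought-experiment arrays alone. The 35 lower calls became 3 with arrays only centred, 1 as deposited, 81 with the 8 drought-experiment arrays alone, 20 with a pseudocount of 1 and 10 with one of 64. The first 2 of these settings moved the median drought difference of brighter probe sets to 0.23 and 0.33. Among probe sets less than 1 unit apart in the controls, a restriction chosen after seeing the data, 70 and 2 were left. Leaving out 1 array gave 210 to 274 higher and 15 to 29 lower calls. The methods' t-test made 311 calls in both directions at an unadjusted p under 0.05, of which 255 were among the 327, and 0 in either direction and in either comparison after Benjamini-Hochberg adjustment. In the controls the 1493 and 1224 calls became 803 and 754 when centred, 353 and 570 as deposited and 784 and 542 with a pseudocount of 64, and 1249 to 1450 and 1022 to 1188 without 1 array. The positive and negative interactions (2151 and 2087) became 818 and 557 when centred, 682 and 219 as deposited, 3878 and 3736 with 8 arrays, 1027 and 1047 with a pseudocount of 1, and 1408 to 1599 and 1407 to 1581 without 1 array. With the labels of the 2 drought groups exchanged, an alternative added after seeing the data, they were 935 and 1153. At a threshold of 2, opposite calls went from 250 to 69, same-direction calls from 3 to 0 and calls under drought alone from 74 to 30. The letters A and B did not pair the arrays (correlations of deviations −0.025 to 0.034). With the letter as a replicate block there were 283 higher and 34 lower calls, 1483 and 1218 in the controls and 2049 and 1984 interactions. Of 26 named genes called under drought, 7 kept the call in every alternative except the t-tests, 11 lost it in some fit without 1 array and none changed sign on its own probe set. Another probe set of LOC4325919 gave −0.48. The cause of these shifts was not tested.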
